A study of Rattus norvegicus with 9 samples.

Results

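Genes of oxidant production, antioxidant defence and iron handling were followed in retinal microglia, the resident macrophages of the retina, sorted from diabetic and control rats. The members are 37 named genes taken from the gene counts table by symbol: 5 subunits of the phagocyte NADPH oxidase, 3 regulators of the NRF2 response, 5 genes of glutathione and cystine, 10 of peroxide and thioredoxin chemistry, 4 of superoxide, peroxide and quinone clearance, 3 of heme breakdown and 7 of iron storage and transport. Of these, 36 were found among the 28343 genes of the table, Slc40a1 was not analysed here, and 35 passed the filter on low counts. The gene left out by that filter was Srxn1, the sulfiredoxin gene, with 0 to 8 counts per library. All rats were of the inbred Dark Agouti strain. Diabetic rats (n = 4 libraries) received streptozotocin, which destroys pancreatic beta cells, at 55 mg/kg when 8 to 10 weeks old, and control rats (n = 5 libraries) received citrate buffer, both after a 12 hour fast. Insulin, 2 units at a time, was injected into diabetic rats above a blood glucose of 30 mmol/l, and how much each received is not in the labels, and retinas of both groups were taken 4 weeks after injection. Cells were released from whole retina with papain and sorted on CD11b, an integrin that other myeloid cells also carry, and RNA was preamplified with a SmartSeq kit. The labels do not say that each library is a single rat, so p-values measure the spread between these libraries.

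Phagocytes make superoxide with an oxidase whose membrane core is formed by the Cybb and Cyba proteins and is switched on by cytosolic subunits. Cells answer oxidants through the transcription factor NRF2, which KEAP1 holds in check by directing its breakdown, and NRF2 drives enzymes that make glutathione and reduce peroxides. Iron is tied to this chemistry because free ferrous iron turns peroxide into more reactive radicals: cells take iron up with the transferrin receptor, store it in ferritin, and recover it from heme with heme oxygenase, and retinal microglia are among the cells that hold iron in the retina.

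The labelled cell type was checked against markers of microglia. Of 15 microglia genes in the table, 14 were detected, and their summed level was 37720 ± 2081 CPM (scaled counts per 1e6 counts, SD, n = 5) without and 36270 ± 1150 CPM (SD, n = 4) with diabetes. Siglech had no count in any library. Total counts ran from 9156591 to 11332823 in control and from 6228756 to 9629829 in diabetic libraries, with the lowest total in diabetic 4. The control libraries differed widely in immediate-early and stress genes such as Egr1, Nr4a1 and Atf3. A score of 28 such genes, the mean of their log2 CPM centred over all libraries and called the isolation-response score here, was -0.88, -1.93, 1.27, -0.50 and 1.67 in controls 1, 3, 4, 5 and 6, and lay between -0.59 and 0.74 in the diabetic libraries. Whether such genes were switched on in the retina or during cell isolation cannot be told apart in these data. Controls 4 and 6 had the highest scores and control 3 the lowest, and both ends lay outside the diabetic range, as did control 1. Members whose log2 fold change turned or moved by over 1.5 times without controls 4 and 6, chosen after the data were seen, are given with and without both, and control 3 is left out where counts of calls move.

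Because NRF2 binds a short sequence known as the antioxidant response element, the 250 bases before the start of each member gene were searched for its core, TGACNNNGC, on both strands, in RefSeq promoters of the GRCr8 build. Promoters were present for 28 of the 36 genes, in 33 windows. The core was found for 6 of these genes, against 10.1% of the 33469 promoters searched. Here and below a gene counts once over all its windows, while the share over all promoters counts each window, so the units are not alike. Each is shown with 10 bases on either side, 5′ to 3′ on the strand of the gene, with the match in capitals, which on all of them reads as the reverse complement of the core.
Ncf1: ctgccccaacGCTCTGTCAgctcaacagt
Gclm: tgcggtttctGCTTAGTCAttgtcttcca
Txnrd1: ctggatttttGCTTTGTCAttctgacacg
Prdx1: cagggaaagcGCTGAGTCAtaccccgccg
Sod2: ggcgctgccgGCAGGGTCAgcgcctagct
Hmox2: gtcttggaagGCAGTGTCAgcttggccag
The windows lie at chr12:28121716-28121744 for Ncf1, chr2:213031953-213031981 for Gclm and chr5:135383761-135383789 for Prdx1 on the plus strand, and at chr7:22755964-22755992 for Txnrd1, chr1:50050185-50050213 for Sod2 and chr10:11337689-11337717 for Hmox2 on the minus strand. The matches begin between 172 bases (Gclm) and 35 bases (Sod2) before the start. That of Prdx1 overlaps a match to TGANTCA, the site of AP-1 factors such as Fos and Jun, which was found in 3 of the 28 genes (Cybb, Prdx1 and Srxn1) and in 6.34% of all promoters. The NF-kappaB consensus was found in 0 of the 28 genes and in 1.3% of all promoters. A match is a description of the letters only.

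The promoters of the 4 members whose diabetic and control libraries did not overlap held none of these 3 motifs in this window. Such non-overlap held for 11.4% of the tested members and for 8.44% of all genes tested, and the promoters are printed as a description. They lie at GRCr8 chr11:81690319-81690568 (Tfrc, minus strand), chr2:104368420-104368669 (Cp, plus strand), chr19:67404215-67404464 (Cyba, minus strand) and chr1:213532028-213532277 (Prdx5, minus strand).
Tfrc: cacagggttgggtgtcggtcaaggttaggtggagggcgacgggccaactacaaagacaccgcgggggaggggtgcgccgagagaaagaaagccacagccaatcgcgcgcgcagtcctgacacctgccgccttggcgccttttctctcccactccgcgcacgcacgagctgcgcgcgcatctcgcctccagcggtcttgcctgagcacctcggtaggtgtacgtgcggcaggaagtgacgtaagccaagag
Cp: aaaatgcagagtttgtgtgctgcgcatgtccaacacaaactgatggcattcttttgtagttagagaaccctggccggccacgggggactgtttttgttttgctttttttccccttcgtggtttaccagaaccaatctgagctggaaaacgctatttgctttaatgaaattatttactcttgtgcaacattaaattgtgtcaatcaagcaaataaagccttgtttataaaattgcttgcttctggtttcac
Cyba: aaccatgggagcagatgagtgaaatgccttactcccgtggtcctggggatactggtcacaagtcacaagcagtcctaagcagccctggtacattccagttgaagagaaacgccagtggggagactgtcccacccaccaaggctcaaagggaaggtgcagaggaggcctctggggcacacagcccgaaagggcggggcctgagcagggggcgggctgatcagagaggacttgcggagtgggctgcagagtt
Prdx5: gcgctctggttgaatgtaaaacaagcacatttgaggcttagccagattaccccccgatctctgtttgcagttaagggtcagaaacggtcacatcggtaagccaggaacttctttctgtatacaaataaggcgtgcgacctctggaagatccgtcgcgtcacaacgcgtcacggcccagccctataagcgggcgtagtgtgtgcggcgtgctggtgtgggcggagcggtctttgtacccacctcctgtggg

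The main comparison asked whether these genes differ between diabetic and control microglia. None of the 35 tested members passed an adjusted p of 0.05 in the quasi-likelihood test of edgeR (Benjamini-Hochberg over all genes), in which 0.0681% of 11748 genes passed. At an unadjusted p below 0.05 there were 11 members, 5 higher (8.94% of all genes tested) and 6 lower (10% of all genes tested) in diabetic microglia, or 31.4% of the members against 18.9% of all genes tested. For 4 members, or 11.4%, the values of the groups did not overlap, against 8.44% of all genes: Cyba and Prdx5 were higher in every diabetic library (4.27% of all genes) and Tfrc and Cp lower in every one (4.16%). The same 4 genes passed by DESeq2's Wald test, in which 5.16% of genes passed, with adjusted p-values from 0.00857 to 0.0408, and limma-voom called 0 members and 0.034% of all genes. The median log2 fold change of the members was 0.04, with 18 above and 17 below 0, and that of all genes was 0.0017.

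**Figure D1:**
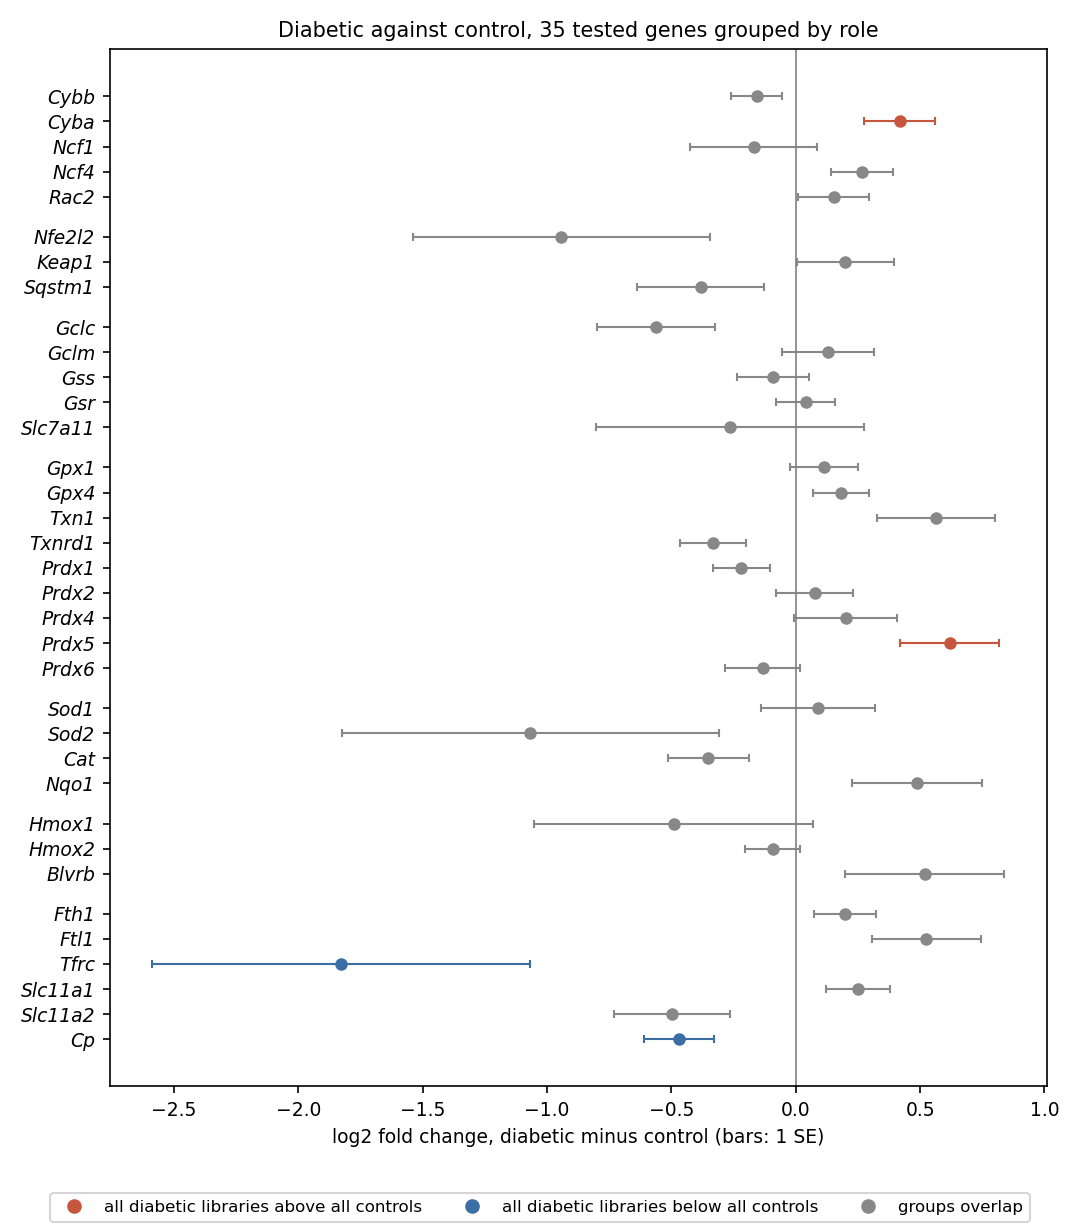
Log2 fold change of diabetic minus control for the 35 tested genes (horizontal axis), grouped by role from oxidase subunits at the top to iron genes at the bottom, with bars of 1 SE from the quasi-likelihood fit (n = 5 control, n = 4 diabetic). Tfrc has the lowest value (-1.83) and Prdx5 the highest (0.62), and the widest bars belong to Tfrc, Sod2, Nfe2l2 and Hmox1.

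Among the oxidase subunits the membrane partner Cyba stood apart from the others. Cyba, the p22phox subunit that stabilises the oxidase core, was at 322, 296, 252, 274 and 259 CPM in controls 1, 3, 4, 5 and 6 and at 349, 359, 463 and 329.5 CPM in diabetic 1, 2, 4 and 5. Every diabetic library lay above every control, and diabetic 4 was the highest. Its mean was 281 ± 28.8 CPM (SD, n = 5) in controls and 375 ± 60.1 CPM (SD, n = 4) with diabetes, or 0.42 (SE 0.14) as a log2 fold change, with an edgeR adjusted p of 0.1145. Without diabetic 4 the log2 fold change was 0.30, with all the remaining diabetic libraries still above the controls. Ncf4, the p40phox subunit, was at 79.8, 77.8, 70.4, 60.6 and 79.0 CPM in controls and at 100.1, 79.5, 91.8 and 82.1 CPM in diabetic libraries, where diabetic 2 fell inside the control range (log2 fold change 0.27, SE 0.13, edgeR adjusted p = 0.231).

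The remaining subunits overlapped between the groups. Cybb, the catalytic gp91phox subunit, was at 864 ± 77.1 CPM (control mean) and 774 ± 75.1 CPM (diabetic mean), or -0.16 as a log2 fold change (edgeR adjusted p = 0.375). Ncf1, the p47phox organiser, ran from 264 to 615 CPM in controls, highest in controls 6 and 4, and from 295 to 376 CPM in diabetic libraries, and the sign of its log2 fold change of -0.17 turned to 0.26 without those controls. Rac2, the GTPase of the active complex, had a log2 fold change of 0.15 (edgeR adjusted p = 0.549). Per kilobase of the longest reference transcript in the authors' assemblies, the control level was highest for Cyba (365 ± 37.5 CPM per kb, 768 bases), followed by Cybb (202 ± 18.03, 4277 bases) and Rac2 (200 ± 21.4, 1362 bases), whose ranges of 1 SD overlap, then Ncf1 (137 ± 54.2, 2758 bases) and Ncf4 (49.1 ± 5.42, 1496 bases). Cyba lies on Rnor6 chromosome 19, 55249616 to 55257876, on the minus strand, and Cybb on chromosome X, 14578264 to 14612547, on the plus strand, each the span of its reference transcript.

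The regulators of the NRF2 response spread far more among controls than between groups. Nfe2l2, the gene of NRF2, was at 171, 196, 524, 229 and 844 CPM in controls 1, 3, 4, 5 and 6 and at 199.9, 182, 167 and 268 CPM in diabetic 1, 2, 4 and 5. Controls 4 and 6 alone lay above the diabetic range. Its log2 fold change of -0.94 (SE 0.60, edgeR adjusted p = 0.357) was 0.03 without these controls. Sqstm1, the p62 adaptor that binds KEAP1, showed the same arrangement, with 559 ± 214 CPM (SD, n = 5) and 429 ± 23.5 CPM (SD, n = 4), and its log2 fold change of -0.38 was 0.018 without controls 4 and 6. Keap1, the repressor, ran the other way: controls 4 and 6 had 32.9 and 31.4 CPM, the other controls 50.5 to 61.5 CPM and the diabetic libraries 49.4 to 56.9 CPM, which gave 0.20 as log2 fold change (edgeR adjusted p = 0.561) that was -0.067 without those controls.

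Of the glutathione genes, the catalytic and the modifier subunit of the rate-limiting ligase differed in pattern. Gclc, the catalytic subunit, was at 71.6, 69.9, 112, 78.95 and 134 CPM in controls and at 75.6, 57.2, 54.4 and 64.7 CPM in diabetic libraries. Diabetic 1 was the only diabetic library within the control range, and the log2 fold change was -0.56 (SE 0.24, edgeR adjusted p = 0.180). Controls 4 and 6 were the highest, and the value was -0.23 without both. Gclm, the modifier subunit, was at 14.4 ± 2.81 and 15.7 ± 2.52 CPM (log2 fold change 0.13, edgeR adjusted p = 0.711). Gss, glutathione synthetase, and Gsr, glutathione reductase, had log2 fold changes of -0.091 and 0.04, and that of Gsr was -0.044 without controls 4 and 6. Slc7a11, the cystine importer, was low at 0.521 to 2.26 CPM in controls and 0.478 to 2.50 CPM in diabetic libraries, on 3 to 25 counts per library, which is too few to show a difference of the size fitted (-0.26, SE 0.54, and 0.026 without controls 4 and 6).

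Among peroxide-reducing genes Prdx5 separated the groups and Txn1 did so in part. Prdx5, a peroxiredoxin of mitochondria, peroxisomes and cytosol, was at 16.2, 17.9, 20.7, 14.9 and 17.7 CPM in controls and at 27.9, 20.95, 34.1 and 24.5 CPM in diabetic libraries. Each diabetic library lay above each control, although diabetic 2 and control 4 were close. The log2 fold change was 0.62 (SE 0.20), a fold of 1.53, with an edgeR adjusted p of 0.1003, on 137 to 206 counts per control library and 205 to 282 counts per diabetic library. The gene lies on Rnor6 chromosome 1, 222164462 to 222167447, on the minus strand. Txn1, the cytosolic thioredoxin, was at 19.9, 17.97, 25.6, 18.6 and 25.6 CPM in controls and at 33.7, 24.2, 46.2 and 23.4 CPM in diabetic libraries, so that diabetic 2 and 5 fell below controls 4 and 6 (log2 fold change 0.56, SE 0.24, edgeR adjusted p = 0.183). Its log2 fold change was 0.33 without diabetic 4.

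Txnrd1, the reductase that recharges thioredoxin, leaned the opposite way from Txn1. It was at 86.9, 92.5, 102, 91.4 and 92.7 CPM in controls and at 70.5, 62.2, 72.1 and 90.9 CPM in diabetic libraries, of which diabetic 5 alone lay within the control range, and its log2 fold change was -0.33 (SE 0.13, edgeR adjusted p = 0.162). The other tested genes of this group, Gpx1, Gpx4, Prdx1, Prdx2, Prdx4 and Prdx6, had log2 fold changes between -0.22 (Prdx1) and 0.20 (Prdx4), and their edgeR adjusted p-values lay between 0.278 and 0.806. Without controls 4 and 6 the log2 fold change of Prdx4 was 0.012, that of Gpx1 0.24 in place of 0.11, that of Prdx2 0.20 in place of 0.076 and that of Prdx6 0.033. Gpx1, the main cytosolic glutathione peroxidase, was the most abundant of the group per kilobase among the members with a reference transcript, at 501 ± 77.9 CPM per kb in control and 542 ± 75.2 CPM per kb in diabetic libraries, and Gpx4, which reduces lipid peroxides, was at 113 ± 8.49 and 128 ± 16.1 CPM. Reads of Gpx1, Gpx4, Txn1 and the peroxiredoxins can be shared with processed copies elsewhere in the genome.

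The dismutases and catalase did not pass either. Sod2, the mitochondrial superoxide dismutase, was at 77.3, 87.9, 419, 108 and 497 CPM in controls and at 110, 90.2, 85.5 and 167 CPM in diabetic libraries. Controls 4 and 6 were the highest, followed by diabetic 5. The log2 fold change of -1.07 (SE 0.76, edgeR adjusted p = 0.416) was 0.31 without these controls. Cat, catalase, was at 118, 106, 131, 145 and 172 CPM in controls and at 108, 95.1, 93.1 and 125 CPM in diabetic libraries, with overlap at diabetic 1 and 5 and a log2 fold change of -0.35 (SE 0.16, edgeR adjusted p = 0.222) that was -0.23 without controls 4 and 6. Sod1, the cytosolic dismutase, was at 37.03 ± 9.95 and 39.5 ± 11.6 CPM (log2 fold change 0.09, and 0.37 without controls 4 and 6). Nqo1, a quinone reductase used as a marker of NRF2 activity, was low at 5.09 ± 1.35 CPM (SD, n = 5) and 7.11 ± 0.949 CPM (SD, n = 4), with a log2 fold change of 0.49 (SE 0.26, edgeR adjusted p = 0.285) that was 0.74 without controls 4 and 6.

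No gene of heme breakdown had an unadjusted p below 0.05. Hmox1, the inducible heme oxygenase, ran from 180 to 750 CPM in controls, with 750 and 510 CPM in controls 4 and 6, and reached 451 CPM in diabetic 5, above the 193 to 214 CPM of diabetic 1, 2 and 4. Its log2 fold change of -0.49 (SE 0.56, edgeR adjusted p = 0.633) was 0.38 without controls 4 and 6. Hmox2, the constitutive heme oxygenase, varied little, with 52.9 ± 4.51 and 49.6 ± 4.81 CPM (log2 fold change -0.093, and -0.15 without controls 4 and 6). Blvrb, a biliverdin reductase, had 2.88 ± 0.804 and 4.18 ± 1.12 CPM on 16 to 49 counts per library (log2 fold change 0.52, edgeR adjusted p = 0.346, and 0.31 without controls 4 and 6).

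The iron genes included the member with the largest fold change, although none passed the threshold. Tfrc, the transferrin receptor, was at 14.4, 16.6, 60.7, 24.1 and 85.2 CPM in controls 1, 3, 4, 5 and 6 and at 12.3, 8.79, 11 and 12.9 CPM in diabetic 1, 2, 4 and 5. All diabetic libraries lay below all controls, while the controls themselves differed by more than the groups did. The log2 fold change was -1.83 (SE 0.76, edgeR adjusted p = 0.173), and without controls 4 and 6 it was -0.71 (edgeR adjusted p = 0.171), with the groups still apart. Slc11a2, the DMT1 importer of ferrous iron, was at 35.2, 40.6, 64.5, 36.5 and 66.7 CPM in controls and at 33.1, 39.7, 32.4 and 32.5 CPM in diabetic libraries, and diabetic 2 alone lay within the control range (log2 fold change -0.50, SE 0.23, edgeR adjusted p = 0.227). That value was -0.13 without controls 4 and 6.

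Cp, the gene of ceruloplasmin, a copper oxidase that helps iron leave cells, was the member with the smallest p. It was at 136, 137, 170, 161 and 174 CPM in controls and at 110, 99.0, 116 and 124 CPM in diabetic libraries, with no overlap. Its mean was 155.5 ± 18.05 CPM (SD, n = 5) in controls and 112 ± 10.5 CPM (SD, n = 4) with diabetes, or -0.47 as a log2 fold change (SE 0.14, edgeR adjusted p = 0.0895), and it was -0.37 without controls 4 and 6. On Rnor6 its reference transcripts span chromosome 2, 104744461 to 104799853, on the plus strand. Ftl1, the ferritin light chain, was at 187, 109, 219.9, 129 and 191 CPM in controls and at 209.5, 239.5, 267 and 245 CPM in diabetic libraries, and diabetic 1 lay below control 4 (log2 fold change 0.53, SE 0.22, edgeR adjusted p = 0.175).

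Fth1, the ferritin heavy chain that oxidises stored iron, was at 782 ± 100.2 and 898 ± 116 CPM (log2 fold change 0.20, edgeR adjusted p = 0.351, and 0.31 without controls 4 and 6), and both ferritin genes can share reads with processed copies. Slc11a1, the NRAMP1 transporter of the phagosome, was at 352 ± 49.2 and 419 ± 42.0 CPM (log2 fold change 0.25, SE 0.13, edgeR adjusted p = 0.265, and 0.15 without controls 4 and 6). Tfrc, Slc11a2 and the ferritin mRNAs are known to carry iron-responsive elements, through which iron-regulatory proteins hold the uptake mRNAs stable and block ferritin translation when iron is low; RNA counts do not show translation.

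**Figure D2:**
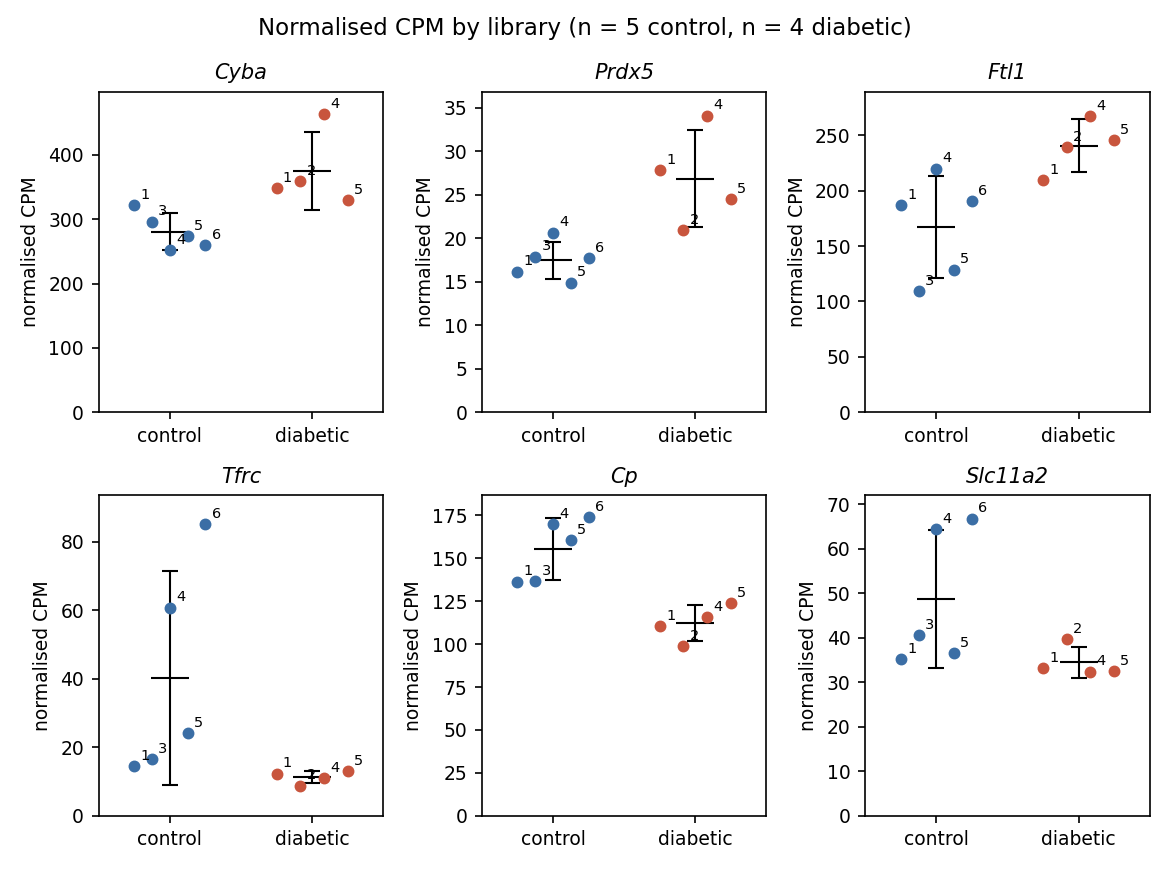
Normalised CPM (vertical axis, from 0) of 6 members in each library, numbered by replicate, with the mean and SD of each group as bars. Cyba and Prdx5 lie higher in every diabetic library than in any control, Tfrc and Cp lie lower, and for Ftl1 and Slc11a2 a single diabetic library lies within the control range.

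Genes of the same pathways that are not members were read from 4 lists of 130 genes in all, of which 94 were tested. None of the 94 passed the adjusted threshold, 22 had an unadjusted p below 0.05 (11 higher and 11 lower, or 23.4% against 18.9% of all genes), and DESeq2 called 8 (5.16% of all genes passed there). The groups did not overlap for 8 of the 94, or 8.51%, close to the 8.44% of all genes. In the oxidase list all 7 tested genes were below 0, and the lowest p-values were those of Prkcb and Prkcd, kinases that phosphorylate the p47phox subunit, and Rap1a, a GTPase found with the oxidase core. Prkcb was at 166 ± 6.89 CPM (SD, n = 5) and 144 ± 8.37 CPM (SD, n = 4) without overlap (log2 fold change -0.21), and Rap1a and Prkcd had log2 fold changes of -0.24 and -0.29, with edgeR adjusted p-values of 0.1975 to 0.229. For Prkcd controls 4 and 6 were highest, at 593 and 616 CPM. Controls 1, 3 and 5, at 439, 454.5 and 449 CPM, lay close to diabetic 1 and 2, at 437.5 and 439 CPM, and diabetic 4 and 5 were at 404 and 393 CPM.

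Among the other NRF2-type genes 12 were above and 15 below 0. Cul3, the scaffold of the ligase that KEAP1 uses to mark NRF2, was at 154, 156, 199, 167 and 210.4 CPM in controls and at 119 to 133 CPM in diabetic libraries without overlap (log2 fold change -0.48, SE 0.14, edgeR adjusted p = 0.0895). Idh1, a source of NADPH, and Bach1, a repressor at antioxidant response elements, had log2 fold changes of -0.29 and -0.69. For Bach1 controls 4 and 6 were highest, at 31.7 and 23.0 CPM, and controls 1 and 3, at 11.5 and 10.7 CPM, lay within the diabetic range of 10.2 to 14.01 CPM. Mgst1, a microsomal glutathione transferase, was at 4.98 ± 1.04 and 9.62 ± 2.51 CPM without overlap (log2 fold change 0.94, SE 0.30, edgeR adjusted p = 0.0991), and Ptgr1 and Mgst3 had log2 fold changes of 0.43 and 0.87.

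Among the other peroxide and thiol genes 14 were above and 10 below 0. Txnip, which binds and inhibits thioredoxin and responds to glucose, was at 493, 527, 397, 484 and 347 CPM in controls and at 667, 732, 734 and 790 CPM in diabetic libraries, with no overlap. Its log2 fold change was 0.70 (SE 0.18, edgeR adjusted p = 0.0608). Gpx3, a secreted glutathione peroxidase, was at 3.23 ± 0.745 and 8.28 ± 3.47 CPM without overlap (log2 fold change 1.35, edgeR adjusted p = 0.0895), Glrx2 had a log2 fold change of 0.45, and Nnt, the mitochondrial transhydrogenase that makes NADPH, had -0.35 (edgeR adjusted p = 0.119). Glrx3 had a log2 fold change of -0.26. Glrx, with -0.46, was at 215 and 267 CPM in controls 4 and 6, while the other controls, at 118 to 131 CPM, lay close to the diabetic libraries, at 118 to 126 CPM.

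In the iron and heme list 19 of 36 tested genes were above 0. Aco1, the gene of iron-regulatory protein 1, was at 91.8, 89.3, 83.2, 89.2 and 90.3 CPM in controls and at 79.1, 65.7, 71.8 and 72.3 CPM in diabetic libraries without overlap. Its log2 fold change was -0.30 (SE 0.11, edgeR adjusted p = 0.124). Control 4 was the lowest control, nearest the diabetic libraries, and control 6 lay among the other controls. Ncoa4, the receptor that delivers ferritin to lysosomes, was at 467 ± 53.7 and 345 ± 42.1 CPM (log2 fold change -0.44, edgeR adjusted p = 0.102), and Tf, transferrin, had a log2 fold change of -0.17. Cd163, the scavenger receptor of haemoglobin bound to haptoglobin and a marker of border macrophages, was at 57.4 ± 22.1 and 168 ± 64.4 CPM (log2 fold change 1.55, edgeR adjusted p = 0.0895), and Hp, haptoglobin, and Slc22a17, a receptor of lipocalin, had log2 fold changes of 0.97 and 0.39.

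The wide spread among controls was then measured across all genes with a fit that held the group and the isolation-response score together. Of the 35 members, 10 (28.6%) had a slope on the score past an adjusted p of 0.05, against 10.5% of all genes outside the score (7.41% positive and 3.07% negative). The slopes were positive for Sod2 (0.78, SE 0.18), Tfrc (0.67, SE 0.15), Nfe2l2 (0.60, SE 0.14), Hmox1 (0.58, SE 0.18), Sqstm1 (0.30), Ncf1 (0.29), Gclc (0.26) and Slc11a2 (0.24), in log2 units per log2 unit of the score, and negative for Prdx4 (-0.25) and Keap1 (-0.23). All 3 NRF2 regulators were among them, with Keap1 opposite in sign to Nfe2l2 and Sqstm1. The edgeR adjusted p was below the threshold in each of the 9 fits that left out 1 library for Sod2, Tfrc, Nfe2l2, Hmox1 and Sqstm1, and for Keap1 in 6 of 9. Without both controls 4 and 6, in 7 libraries with a narrower range of scores, no member and 0.059% of all genes passed. The slopes in that fit were closer to 0 for Sod2 (0.38), Nfe2l2 (0.26), Tfrc (0.21), Sqstm1 (0.14), Gclc (0.12) and Ncf1 (0.017), and nearer to their first value for Hmox1 (0.44). Prdx4 had a steeper slope of -0.50 (edgeR adjusted p = 0.0752), while those of Keap1 (0.075) and Slc11a2 (-0.052) had the opposite sign. Within the diabetic group, diabetic 5 had the highest score and was also the highest for 5 of the 8 members with a positive slope, namely Sod2, Tfrc, Nfe2l2, Hmox1 and Sqstm1. Ncf1 was highest in diabetic 4, Gclc in diabetic 1 and Slc11a2 in diabetic 2, and of the members with a negative slope Prdx4 was lowest in diabetic 5 and Keap1 in diabetic 4. The diabetic libraries were part of the fit that picked these members, so their order is a description and no separate support for the slopes.

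**Figure D3:**
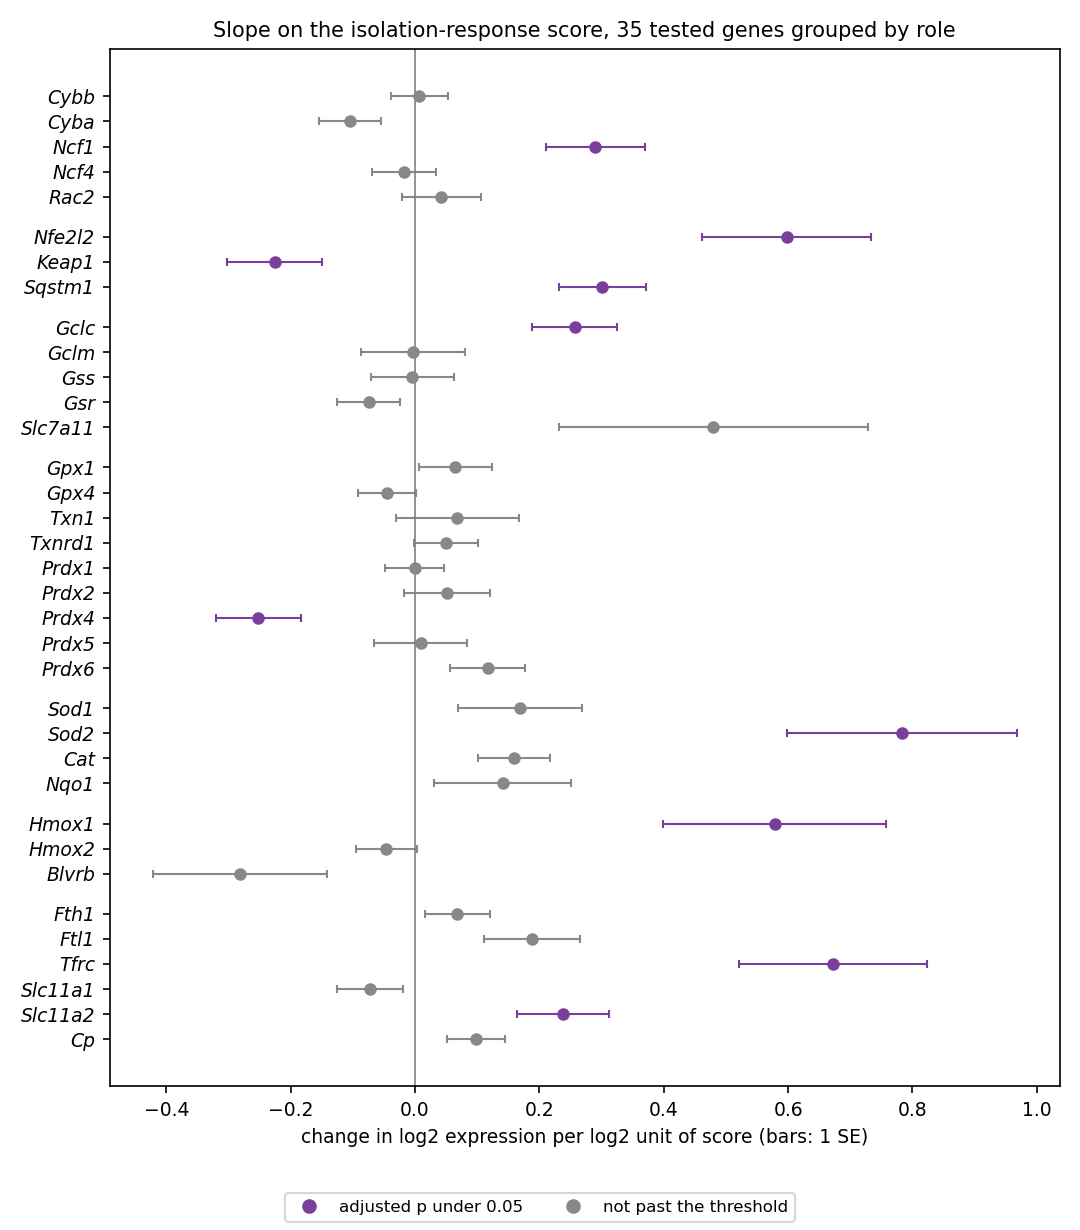
Slope of log2 expression on the isolation-response score (horizontal axis, log2 per log2 unit) for the 35 tested genes grouped by role, with bars of 1 SE, from a fit with group and score over 9 libraries. Sod2, Tfrc, Nfe2l2 and Hmox1 have the steepest slopes past the threshold, and Prdx4 and Keap1 are the genes with a negative slope past it.

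**Figure D4:**
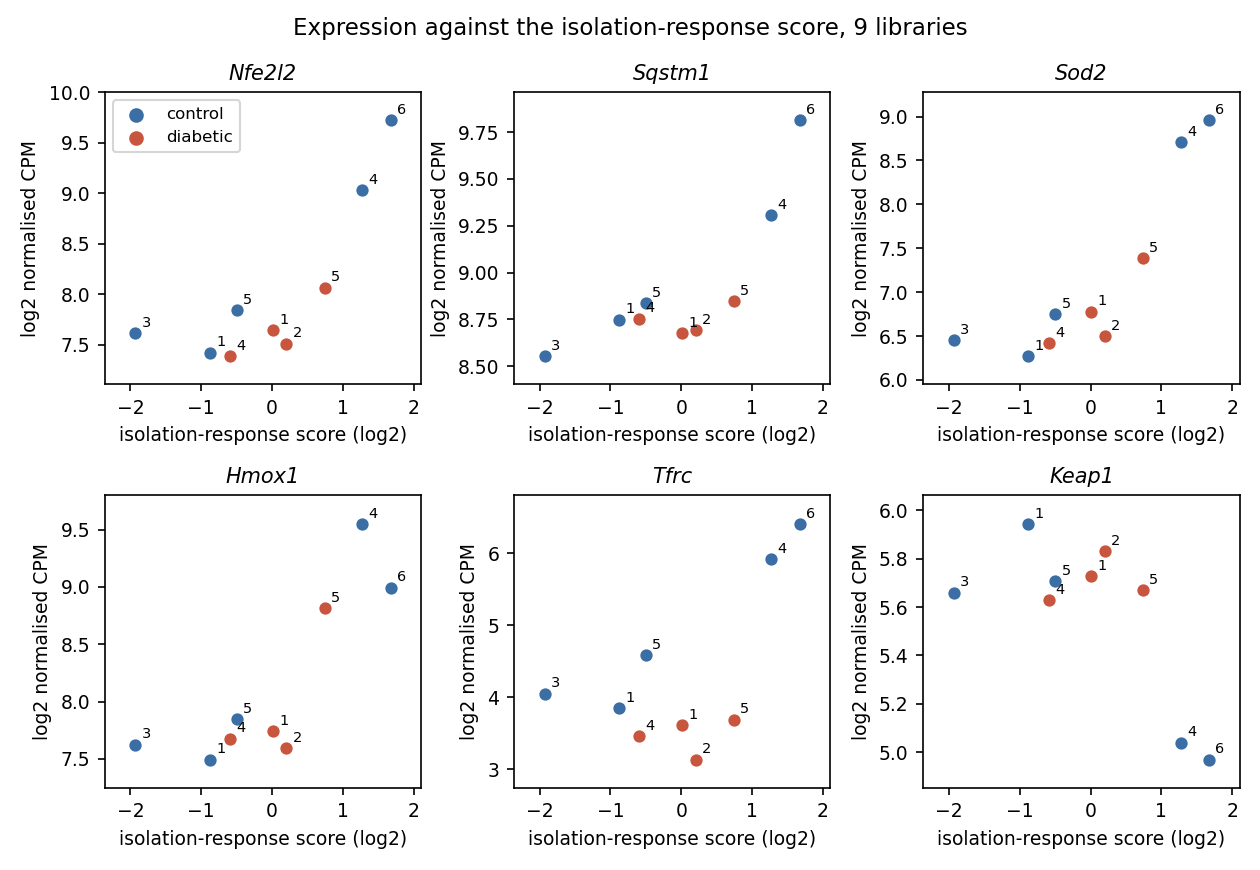
Log2 normalised CPM of 6 members (vertical axes) against the isolation-response score (horizontal axis) in 9 libraries, numbered by replicate and coloured by group. Controls 4 and 6 lie at the upper right for the first 5 genes and at the lower right for Keap1, and for Tfrc the diabetic libraries lie below the controls.

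In that fit the difference between groups passed for 11 members (31.4%), 3 higher and 8 lower, against 11.2% of all genes (4.25% higher and 6.93% lower). Cyba (0.43), Prdx5 (0.62) and Ftl1 (0.53) were higher in diabetic microglia, and Tfrc (-1.63), Sod2 (-0.82), Nfe2l2 (-0.80), Gclc (-0.56), Slc11a2 (-0.50), Cp (-0.48), Cat (-0.37) and Sqstm1 (-0.36) were lower, with edgeR adjusted p-values from 0.00445 (Tfrc) to 0.0453 (Sod2). Cyba, Gclc, Tfrc and Cp passed in each of the 9 fits without 1 library, with edgeR adjusted p-values of up to 0.0456. Leaving out control 6 reduced the count to 5, with 3.89% of all genes called. Leaving out control 3, diabetic 1, diabetic 2 or diabetic 4 reduced it to 6. In those fits 4.97%, 5.82%, 4.58% and 6.34% of all genes were called, so the calls over all genes fell too. Without controls 4 and 6 the count was 0, with 0.0756% of all genes called. The differences of the 11 members were then 1.03 for Prdx5, 0.62 for Ftl1, 0.53 for Cyba, -0.96 for Tfrc, -0.57 for Cat, -0.49 for Cp, -0.37 for Gclc, -0.30 for Nfe2l2, -0.18 for Sod2, -0.14 for Sqstm1 and -0.065 for Slc11a2 on the log2 scale. Those of Sod2, Nfe2l2, Sqstm1 and Slc11a2 were thus much closer to 0 than in all 9 libraries.

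The CD11b gate can hold other myeloid cells, which also express oxidase subunits, so their markers were summed per library. The neutrophil list (12 genes in the table, 3 of them, Ltf, Lcn2 and Mpo, at 0 everywhere) summed to 0.857 to 12.5 CPM in controls and 20.6 to 81.6 CPM in diabetic libraries, the monocyte list (10 genes, Ccr2 and Cd177 at 0) to 318 to 358 and 390.2 to 519.8 CPM, and the border macrophage list (11 genes, none at 0) to 456 to 962 and 825 to 1801 CPM. Their exact permutation p-values were 0.0159, 0.00794 and 0.0238 (two-sided, over all 126 splits), each 0.0794 after adjustment over 10 lists, with log2 differences of 3.68, 0.35 and 0.94. The neutrophil sum was led by S100a9, at 0.214 to 5.58 CPM in controls and 14.8 to 52.9 CPM in diabetic libraries. Camp, Ngp and Elane of that list had only 14, 9 and 4 counts over all libraries. Ly86 made up most of the monocyte sum in every library, at 229 to 276 CPM in controls and 253 to 328 CPM in diabetic libraries, followed by S100a4 and Spn. Whether the Ly86 reads came from monocytes or from the microglia was not tested, so the sum is no measure of monocyte RNA. Itga4 of the monocyte list leaned lower, with a log2 fold change of -0.24. Diabetic 4 was highest in the neutrophil and monocyte lists and also in 12 members, among them Cyba, Txn1, Prdx5, Rac2, Prdx4 and Ftl1, and diabetic 1 was highest in the border macrophage list, Mgst1, Gpx3 and Cd163, of which Cd163 is itself one of the genes summed in that list. Markers of inner retinal neurons summed to 85.8 to 192 CPM in controls and 126 to 385 CPM in diabetic libraries, highest in diabetic 1 (log2 difference 0.75, exact permutation p = 0.0714, adjusted 0.143), and vascular markers to 271 to 494 and 205 to 308 CPM (log2 difference -0.42, exact permutation p = 0.0635, adjusted 0.143), with no gene of either list at 0 in all libraries. Photoreceptor markers varied widely between libraries, at 249 to 1339 CPM in controls and 396 to 1916 CPM in diabetic libraries, highest in diabetic 2 (log2 difference 0.055, exact permutation p = 0.913). In bulk libraries fewer or more cells of a type and less or more RNA per cell cannot be told apart, and the part of all these other cells in the differences of the members was not tested. Erythroid genes were near 0, with a sum of 0.129 to 9.09 CPM, although Cat, Prdx2 and Blvrb are also red-cell genes.

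**Figure D5:**
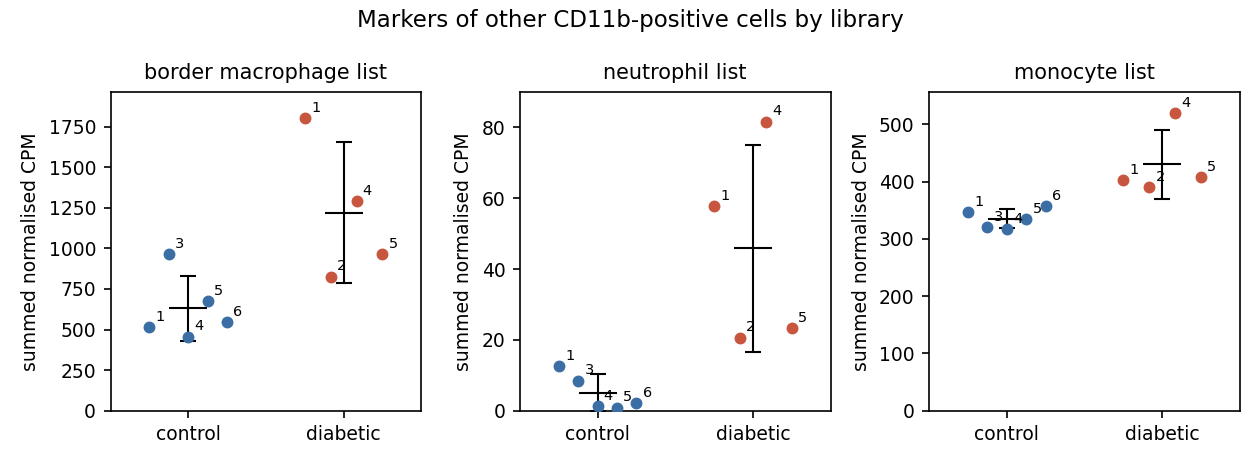
Summed normalised CPM (vertical axis, from 0) of the border macrophage, neutrophil and monocyte marker lists in each library, numbered by replicate, with the mean and SD of each group. The diabetic libraries lie above all controls for the neutrophil and monocyte lists and overlap them for the border macrophage list. Most of the monocyte sum is Ly86.

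The authors' deposited table, which gives its own comparison of the groups, listed 35 of the members. Of these, 2 passed in the authors' deposited table at an adjusted p of 0.05, against 2.1% of the 12069 genes listed there: Tfrc, at -1.64 on the log2 scale (adjusted p = 0.00561), and Prdx5, at 0.73 (adjusted p = 0.0192). Ftl1 (0.65, adjusted p = 0.0501) and Txn1 (0.69, adjusted p = 0.0596) were next in the authors' deposited table, followed by Cyba (0.52, adjusted p = 0.150), and Cp had -0.35 with an adjusted p of 0.267. The authors' deposited table has a median log2 fold change of 0.119 over all its genes, and its values for Tfrc and Cp are those of the quasi-likelihood fit without scaling factors (-1.64 and -0.35).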

How the data were processed

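Raw counts per gene symbol were deposited by the authors for 9 libraries. The submitters' processing notes name TopHat2 2.0.14, StringTie 1.2.4 and edgeR on Rnor_6.0, and no counter or strandedness is given in the sources used here, so overlapping genes and near-identical copies can share or lose reads. The authors also deposited a table of log2 fold changes, p-values and adjusted p-values for 12069 genes, whose repeated counts equalled the count table. Positions and exon lengths came from reference transcripts in the StringTie assemblies on the Ensembl annotation of Rnor6, per the file headers, for 21 members. They cover no more than what was assembled.

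Genes were filtered with filterByExpr (minimum count 10, minimum total 15), scaled with TMM factors (0.839 to 1.07) and tested over 11748 genes with the edgeR 4.0.16 quasi-likelihood test in R 4.3.3, and p-values were adjusted after Benjamini and Hochberg (threshold 0.05). Each SE was derived from a log2 fold change and its p-value through the normal distribution. CPM uses the TMM-scaled library size. The score is the mean log2 CPM (prior count 2) of 28 genes, none of them a member. Alternatives used DESeq2 1.42.0, limma 3.58.1, other factors, no filter, a replicate block and leaving out libraries. The fits were tested on simulated data with slopes and group differences larger than most of those reported here, so recovery of smaller effects was not tested. No 2 libraries agreed within sampling noise (chi-square of at least 11.7 per degree of freedom over pairs). Counts are reads, with no molecular identifiers named, and intervals of depth cover counting error only.

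The members, lists and the isolation-response score were chosen with earlier results of these data known. Members with an unadjusted p below 0.05, groups that do not overlap, or the 3 largest fold changes per direction are given by library, and pathway genes are those past the threshold and the 3 per direction with the smallest p.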

Additional observations from a re-analysis of the deposited data

Results flagged for a closer look

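Among 72 groups (36 genes in 2 groups), 2 had a library set apart from the rest by Dixon's test, which flags about 1 group in 20 by chance. Hmox1 was at 451 CPM in diabetic 5, against 193 to 214 CPM in diabetic 1, 2 and 4. Slc11a2 was at 39.65 CPM in diabetic 2, against 32.4 to 33.1 CPM in diabetic 1, 4 and 5.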

How the results depend on the processing

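The count of members past the threshold was 0 with every scaling, without a filter, by limma-voom, with the replicate block and without any 1 library. It was 4 by DESeq2 and 11 with the isolation-response score as a covariate. The count over all genes, 8, was 31 with upper-quartile factors, 29 without factors, 42 without a filter, 598 by DESeq2, 4 by limma-voom, 1313 with the score, 0 with the replicate block and 0 without controls 4 and 6, an alternative chosen after the data were seen. Without 1 library it ran from 0 to 75. Pathway genes past the threshold went from 0 to 1 with upper-quartile factors, 1 without a filter, 8 by DESeq2 and 16 with the score, and to 0 to 1 without 1 library. Upper-quartile factors and no factors moved the median over all genes, on the log2 scale, to 0.0774 and 0.117, and calls that were higher then made up 27 of 31 and 28 of 29 genes.

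The count of members with a slope on the score, 10 (10.5% of all genes), was 4 with the replicate block (4.13% of all genes). It was 6 to 12 without 1 library (3.4% to 10.3% of all genes), with 6 and 3.4% without control 6. Without controls 4 and 6 it was 0 (0.059% of all genes). The count of members that differed between groups in that fit, 11 (11.2% of all genes), was 7 with the replicate block (6.4% of all genes). It was 5 to 11 without 1 library (3.89% to 14% of all genes) and 0 without controls 4 and 6 (0.0756% of all genes). Members whose groups do not overlap, 4 (8.44% of all genes), were 8 on total-count CPM, against 8.32% of all genes. Without 1 library they were 4 to 7, against 10% to 14.5% of all genes. The 7 came without control 1, where the share of all genes was 13.6%. Without controls 4 and 6 they were 7, where 15% of all genes did not overlap. Marker lists past the threshold went from 0 to 2 without the most abundant gene of each list, and with 4 against 4 libraries the smallest exact permutation p is 0.0286.

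Signs turned, with the cause not tested, without factors for Gss (0.027) and Hmox2 (0.0202); with the replicate block for Ncf1 (0.032), Prdx6 (0.086) and Hmox2 (0.036); and without 1 library for Sod1 (-0.13 to 0.218, below 0 without control 3, at -0.016, or diabetic 4), Ncf1 (-0.2745 to 0.078, above 0 without control 6), Prdx2 (-0.061 to 0.171, below 0 without diabetic 4) and Gsr (-0.0086 to 0.121, below 0 without diabetic 5). Without controls 4 and 6 they turned for Ncf1 (0.26), Nfe2l2 (0.0301), Keap1 (-0.067), Sqstm1 (0.018), Gsr (-0.044), Slc7a11 (0.026), Prdx6 (0.033), Sod2 (0.31) and Hmox1 (0.38). Replicate numbers are shared by 3 pairs, whose deviations from the group means correlated at 0.201, -0.114 and 0.0156, so the numbers were not taken as pairs and the block, with 2 residual degrees of freedom, is given here only.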

Other observations

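Ratios of 2 genes within a library need no scaling factor, and 3 of the 6 examined, all chosen after their values were seen and so not tested, separated the groups. The ratio of Cyba to Cybb counts was 0.416, 0.326, 0.259, 0.333 and 0.308 in controls 1, 3, 4, 5 and 6 and 0.447, 0.531, 0.539 and 0.421 in diabetic 1, 2, 4 and 5, so control 1 lay just below diabetic 5. The ratio of light to heavy ferritin chain, Ftl1 to Fth1, was 0.211 ± 0.0391 (SD, n = 5) without and 0.270 ± 0.0303 (SD, n = 4) with diabetes, with control 1 (0.244) and diabetic 1 (0.246) close together. The ratio of Ftl1 to Tfrc ran from 2.24 to 12.99 in controls and from 17.1 to 27.3 in diabetic libraries. The ratios of Gclc to Gclm, Keap1 to Nfe2l2 and Txn1 to Txnrd1 overlapped between the groups.

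The members were uneven in where they peaked. Diabetic 4, the library with the fewest counts, held the highest value of 12 of the 35 tested members (34.3%, against 16.9% of all genes tested), and control 6 held that of 10 (28.6%, against 19.2%). Diabetic 2 held the lowest value of 10 members (28.6%, against 12.4%).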
